A study of Mus musculus with 79 samples.

Results

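The 7 genes described here are the major urinary protein (MUP) genes *Mup1*, *Mup3*, *Mup9*, *Mup11*, *Mup15*, *Mup19* and *Mup20*, out of 39063 features with a numeric gene ID. They were taken by gene symbol and each symbol matched 1 row. They were chosen for their rise with leptin in inguinal white fat, so their values in that comparison are a description and not a finding. *Mup3* and *Mup20* were on the list although neither rose there. Another 18 rows also carried a *Mup* symbol, which made 25 in all. The features are counted per gene, and all 7 genes passed the low-value filter, a mean of at least 0.4 TPM (a transcript level scaled for gene length and library size) over the 79 libraries. Without the fat libraries of leptin-treated mice 6 of 7 would have passed, the exception being *Mup1*.

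MUPs are small secreted proteins of the lipocalin family, whose barrel-shaped fold holds volatile pheromones. The liver makes most of them, the kidney passes them into urine, and there they release the pheromones slowly and mark which animal left the scent. In liver their transcription is driven by growth hormone acting through STAT5, with further input from androgens, thyroid hormone and glucocorticoids, and males usually make more than females. The genes lie in a cluster of copies on mouse chromosome 4, many of them almost identical.

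RNA was sequenced from 79 tissue samples of 51 mice on a mixed SJLxC57BL6 background, aged 4 to 5 months by the series description. The study's legends give a wider range for these cohorts and an older one for males with insulin pellets, so an age difference of the insulin-treated mice cannot be told apart from insulin. Each mouse carried an intracerebroventricular (ICV) cannula fed by an osmotic pump, was housed alone and was pair fed, and the pump delivered PBS or 100 ng of leptin per h for 9 days. BMAd-*Pnpla2*+/+ (WT) mice were compared with BMAd-*Pnpla2*-/- (cKO) mice, in which the triglyceride lipase ATGL is deleted in bone marrow adipocytes, specifically so by the study's description. The promoters that drive the recombinases of this model are not given in the sources used here. Inguinal white adipose tissue (iWAT) came from 5 WT females with PBS and 5 with leptin. Lumbar vertebrae (LV), the study's control tissue with little fat, came from 5 WT and 4 cKO females with each treatment. Caudal vertebrae (CV), whose marrow is rich in stable adipocytes, came from 5 WT and 4 cKO females with each treatment, from 5 WT and 5 cKO males with PBS and from 8 WT and 4 cKO males with leptin. CV was also taken from WT males given a subcutaneous insulin pellet, 5 with PBS and 6 with leptin, and these mice carry numbers in ranges used for no other group, so insulin and the series of mice cannot be told apart.

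The depth of a library was 28717516 to 29757254 counts for LV, 16100377 to 19364106 for CV and 17638318 to 19100698 for iWAT. The labelled tissues were checked against marker lists. The TPM of 10 adipocyte markers summed to 242 to 567 in LV libraries, 4714 to 12971 in CV libraries and 55378 to 94936 in iWAT libraries, while 7 haematopoietic marrow markers summed to 130615 to 243992 in LV. CV also held skeletal muscle, at 14680 to 65483 TPM over 7 markers. In bulk tissue, fewer cells of a type and less RNA per cell cannot be told apart. Within a group replicates are separate mice, and the iWAT and LV libraries came from females whose CV was sequenced too. Female CV libraries of 3 mice stood apart in *Mup19* and in *Alb*, and they are named with the CV results.

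The sequences matter here because a read can be assigned to a copy only where that copy differs from the others. The 22 *Mup* genes with a coding transcript in GENCODE vM21 were cut into every stretch of 100 bases, the length of 1 read. In *Mup19* each of the 828 stretches was also present, letter for letter, in another *Mup* transcript, and its closest relative, *Mup2*, had 99.57% identity with 4 differing positions. In *Mup15* 22 of 826 stretches were its own, in *Mup1* 106 of 828, in *Mup11* 137 of 831 and in *Mup9* 254 of 810. By contrast, 813 of 839 stretches were particular to *Mup3*, and *Mup20* shared 0.0% of its stretches with any other. The level of any of *Mup1*, *Mup9*, *Mup11*, *Mup15* and *Mup19* therefore depends on how reads were shared among copies, whereas the levels of *Mup3* and *Mup20* hardly do.

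The 7 genes were spread over the cluster on chromosome 4 (GRCm38.p6 coordinates). From the low to the high end lay *Mup9* (chr4:60418046-60422085), *Mup1* (chr4:60498012-60501960), *Mup11* (chr4:60658466-60662432), *Mup15* (chr4:61435787-61439833), *Mup19* (chr4:61778324-61782355), *Mup20* (chr4:62011337-62054143) and *Mup3* (chr4:62083476-62087317). Among the 10 pairs made by *Mup1*, *Mup9*, *Mup11*, *Mup15* and *Mup19*, transcript identity was 94.19% to 99.46%. *Mup3* had 80.67% to 84.75% identity with those 5 and *Mup20* had 86.12% to 90.23%.

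The promoters of *Mup9*, *Mup11*, *Mup15* and *Mup19* were alike, and that of *Mup3*, the only divergent gene with an entry, differed. The RefSeq promoter table (GRCm38.p6) held 5 of the 7 genes, not *Mup1* or *Mup20*. The 150 bases that end in the TATA-like box TATATAA are printed 5′ to 3′ on the gene's strand, the minus strand in each case, to show how closely the rising copies match and where *Mup3* departs, with the box in capitals.
Mup19: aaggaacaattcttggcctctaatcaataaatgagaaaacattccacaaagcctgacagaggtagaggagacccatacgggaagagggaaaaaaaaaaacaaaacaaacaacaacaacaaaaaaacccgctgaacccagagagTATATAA
Mup15: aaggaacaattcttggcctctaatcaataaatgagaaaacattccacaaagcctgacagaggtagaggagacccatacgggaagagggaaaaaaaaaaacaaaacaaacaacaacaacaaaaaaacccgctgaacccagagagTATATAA
Mup9: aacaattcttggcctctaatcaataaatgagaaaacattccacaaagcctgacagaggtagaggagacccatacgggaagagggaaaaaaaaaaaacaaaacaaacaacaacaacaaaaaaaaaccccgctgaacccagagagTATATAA
Mup11: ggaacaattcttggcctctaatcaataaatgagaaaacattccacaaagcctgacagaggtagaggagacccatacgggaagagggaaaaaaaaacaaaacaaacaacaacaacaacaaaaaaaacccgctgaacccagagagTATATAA
Mup3: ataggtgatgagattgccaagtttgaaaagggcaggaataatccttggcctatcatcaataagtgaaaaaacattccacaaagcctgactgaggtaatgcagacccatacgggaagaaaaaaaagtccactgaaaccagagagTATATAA

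The windows lie at chr4:61782249-61782398 for *Mup19*, chr4:61439723-61439872 for *Mup15*, chr4:60421977-60422126 for *Mup9*, chr4:60662391-60662540 for *Mup11* and chr4:62087322-62087471 for *Mup3*. Those of *Mup15* and *Mup19* were identical. *Mup9* had 97.3% identity with them, *Mup11* 96.1% and *Mup3* 76.4%. The box was searched for after the sequences were seen: it was in 5 of these 5 promoters and in 3.2% of 32851 promoters in the table, each 250 bases before to 50 after the start, on either strand. The STAT motif TTCNNNGAA was in 0 of 5 and in 8.3% of all, the C/EBP motif TTGCNNAA in 0 of 5 and 10.8%, the TATAAA box in 0 of 5 and 13.6%, and AGAACA, the core of a glucocorticoid receptor site, in *Mup3* alone and in 19.0%.

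In iWAT of WT females, 5 of the 7 genes were higher with ICV leptin in every leptin-treated mouse than in any PBS mouse, and the other two, *Mup3* and *Mup20*, were not. *Mup19* held the highest level in both groups and *Mup11* came second. Among these 7, the 5 that rose are the near-identical copies, and the 2 that did not are the divergent ones. Of the other *Mup* rows, *Mup14* (log2 fold change 0.05) and *Mup7* (-1.16) did not rise. Yet they share 91.4% and 85.4% of their 100-base stretches with other copies.

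*Mup19* stood at 10848, 5962, 14849, 14392 and 8331 TPM in leptin replicates 1 to 5. In PBS replicates 1 to 5 it stood at 275, 157, 323, 170 and 184.5 TPM. The lowest leptin-treated mouse was thus far above the highest PBS mouse, and the leptin-treated mice differed among themselves by 2.49-fold. The mean of *Mup19* was 222 ± 73.4 TPM in PBS mice (SD, n = 5) and 10876 ± 3833 TPM in leptin-treated mice (SD, n = 5), a log2 fold change of 5.73 (SE 0.36). The mice fall into a low-numbered and a high-numbered series, with leptin replicates 1 and 2 and PBS replicates 1 to 3 in the former. The remaining mice are in the latter. *Mup19* was higher with leptin in both series, which follows from the lack of overlap and is no further check.

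*Mup11* was at 5981, 2085, 6322, 6416 and 2491 TPM with leptin and at 43.5, 43.5, 65.4, 38.1 and 35.0 TPM with PBS. Replicates 2 and 5 of the leptin group formed the low end, at well under the level of the other leptin-treated mice. Its log2 fold change of 6.79 (SE 0.43) was the largest of the 7. Relative to *Mup19*, *Mup11* stood higher with leptin: the ratio of *Mup11* to *Mup19* in TPM was 0.299 to 0.551 with leptin and 0.158 to 0.278 with PBS. Both genes were picked on this contrast, so the ratio is a description. It also depends on how reads were shared among copies.

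*Mup15* was at 953, 185.8, 488, 977 and 383 TPM with leptin and at 19.4, 8.58, 26.9, 5.09 and 6.35 TPM with PBS. It varied most from mouse to mouse, by 5.26-fold within the leptin group, with an SD of 59.1% of the mean. Its promoter window is the same as that of *Mup19*, whose leptin-treated mice had an SD of 35.2% of the mean. The log2 fold change of *Mup15* was 5.57 (SE 0.61).

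*Mup9* was at 381, 116, 427, 597 and 286 TPM with leptin and at 7.85, 8.67, 11.8, 7.88 and 10.6 TPM with PBS. The PBS mice were close together (9.36 ± 1.75 TPM, SD, n = 5), and leptin-treated mice spread over a 5.14-fold range. The log2 fold change of *Mup9* was 5.36 (SE 0.43).

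*Mup1*, which has been studied as a circulating regulator of glucose metabolism, was at 85.7, 25.7, 97.3, 103.8 and 37.0 TPM with leptin. With PBS it was at 2.00, 0.88, 0.55, 0.32 and 1.04 TPM, the lowest mean PBS level of the 7 genes. Its log2 fold change was 6.47 (SE 0.55).

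Leptin replicate 2 was the lowest of its group for each of *Mup1*, *Mup9*, *Mup11*, *Mup15* and *Mup19*, and leptin replicate 5 was the next lowest. Since these copies share reads, that shared order is not 5 separate observations. *Mup3*, which shares few reads with the other rows, had leptin replicate 2 as its highest library.

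*Mup20*, which encodes darcin, the male urinary pheromone protein, was at 3.19, 1.00, 2.84, 1.11 and 2.29 TPM with leptin and at 2.82, 1.77, 2.66, 0.87 and 3.73 TPM with PBS. The groups overlapped over most of their range, with a log2 fold change of -0.15 (SE 0.43). *Mup3* was at 3.83, 13.7, 5.13, 7.61 and 8.12 TPM with leptin and at 21.9, 6.68, 13.6, 5.01 and 8.26 TPM with PBS. These overlapped too, with a log2 fold change of -0.41 (SE 0.43). Both genes were thus detected at low levels in every mouse of both groups.

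**Figure D1:**
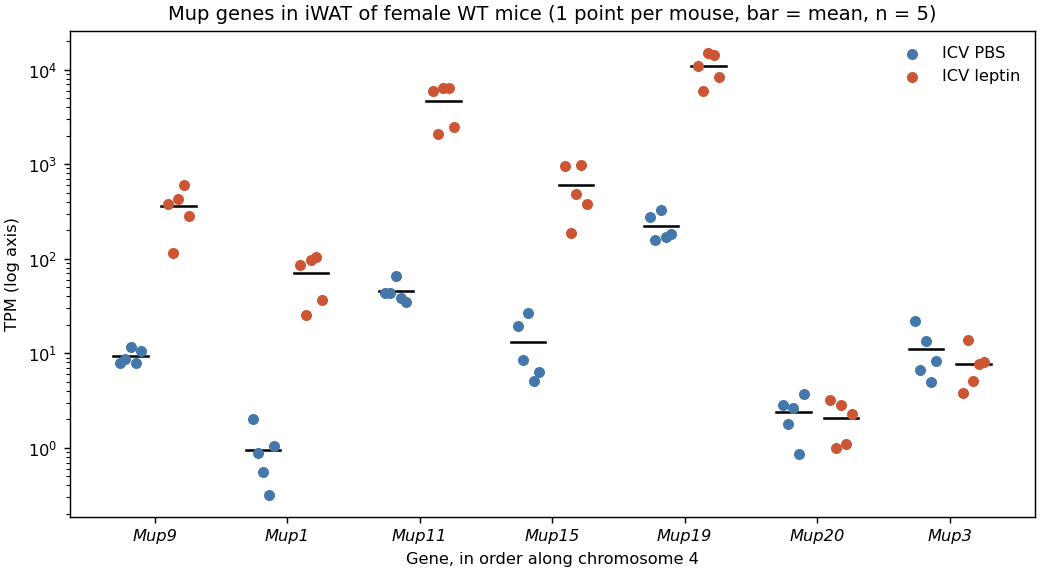
TPM (log axis) of the 7 *Mup* genes in each iWAT library of WT females, 5 with PBS and 5 with leptin, with a point per mouse and a bar at the mean. *Mup1*, *Mup9*, *Mup11*, *Mup15* and *Mup19* do not overlap between treatments, with *Mup19* at 5962 to 14849 TPM with leptin and 157 to 323 TPM with PBS, whereas *Mup3* and *Mup20* do.

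Over the 7 genes the log2 fold changes had a median of 5.57, beside 0.07 over the 14873 genes tested. Of all genes tested, 15.1% were called in this comparison (adjusted p below 0.05 and a log2 fold change of at least 0.5 either way, edgeR quasi-likelihood test with Benjamini-Hochberg adjustment) and 7.24% were called higher. Levels did not overlap between groups for 18.7% of genes, and lay wholly above PBS for 4.32%. The 7 genes were picked on this contrast, so nothing is read from 5 of them passing.

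Other rows of the cluster were also higher with leptin, and most of those tested share reads with other copies. Of the 18 other *Mup* rows 10 passed the filter, and 8 of these 10 were called higher. Without the leptin-treated iWAT libraries 7 of the 18 would have passed, and *Mup12*, *Mup16* and *Mup-ps16* would not, so their calls were in part fixed by the filter. *Mup22*, the most abundant *Mup* row in iWAT, was at 21213 to 29130 TPM with leptin and 3063 to 3951 TPM with PBS (log2 fold change 2.97). *Mup10* followed at 2101 to 3961 and 550 to 711 TPM (2.49), *Mup2* at 1445 to 3436 and 122 to 237 TPM (3.82), *Mup18* at 154 to 402 and 32.0 to 70.3 TPM (2.56) and *Mup17* at 54.6 to 217 and 1.38 to 11.0 TPM (4.62). *Mup16* (4.06), *Mup12* (4.56) and *Mup-ps16* (4.37) rose from a few TPM or less. *Mup7* was called lower (-1.16, adjusted p = 0.0497 by edgeR's quasi-likelihood test) and *Mup14* did not pass (0.05). The promoter window of *Mup14* had 90.7% identity with that of *Mup19*. Among rows called higher, this identity was 89.3% for *Mup18* and 92.1% to 97.4% for *Mup2*, *Mup10* and *Mup17*. *Mup22* has no stretch of its own either, 0 of 762. The other rows called higher for which a transcript was used shared 59.4% (*Mup17*) to 97.3% (*Mup2*) of their stretches. All these levels depend on how reads were shared, so the calls cannot tell which of these genes rose.

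The 7 genes made up a larger part of all *Mup* counts with leptin than with PBS. As they were picked for their rise on this contrast, that is a description and not a finding. It also depends on how reads were shared among copies. Their share of *Mup* counts was 20.7% to 38.6% with leptin and 4.79% to 7.73% with PBS. All *Mup* rows together took 1.84% to 3.05% of a library's counts with leptin and 0.181% to 0.239% with PBS. When the 16 near-identical rows were summed, so that sharing reads among them no longer matters, the median CPM (counts scaled to library size) was 22264 with leptin and 2007 with PBS, a ratio of 11.1. The summed rise is therefore smaller than the rise of any of the 5 copies that were picked.

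**Figure D2:**
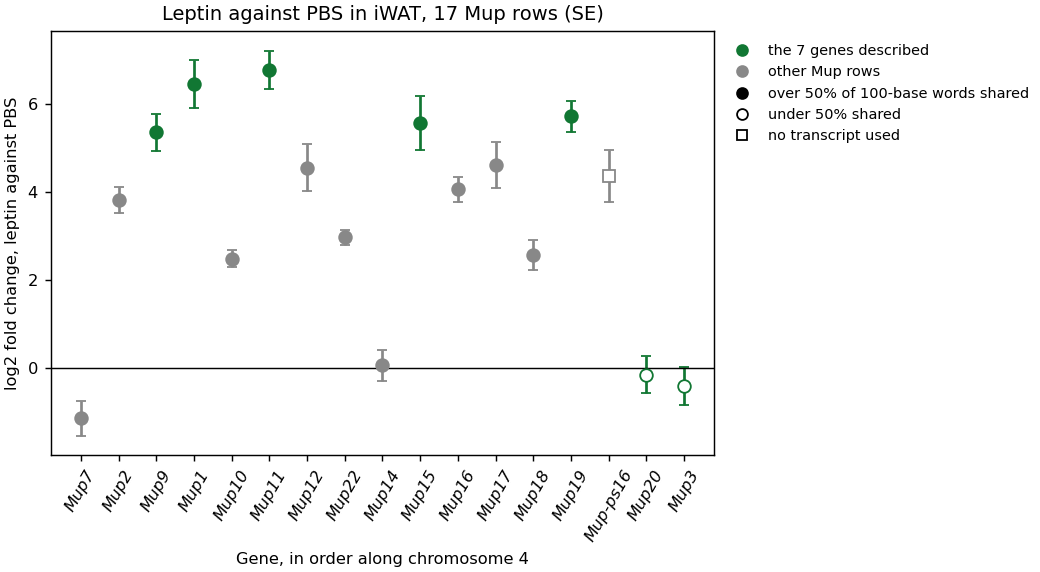
Log2 fold change (leptin over PBS, with SE) in iWAT of the 17 *Mup* rows tested, in their order along chromosome 4, with the 7 genes described here in green. Circles are filled where over 50% of a transcript's 100-base stretches are shared, open where fewer are, and squares mark rows with no transcript used. The rows that rose lie along the length of the cluster, while *Mup3* (-0.41) and *Mup20* (-0.15) near its high end do not rise. Nor do *Mup14* (0.05) and *Mup7* (-1.16), whose circles are filled.

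Markers of hepatocytes, the main source of MUPs, were measured beside this. Of 16 hepatocyte markers 1 was called higher, *Cyp2e1*, an enzyme that fat also expresses, at 1906 to 3874 TPM with leptin and 313 to 1564 TPM with PBS (log2 fold change 1.80, adjusted p = 0.0109 by edgeR's quasi-likelihood test). The summed level of the list was 2070 to 5324 TPM with leptin and 541 to 1685 TPM with PBS, and all 16 were detected. That sum includes *Cyp2e1* at the levels just given, so it is not a measure of the list as a whole. *Alb*, which encodes serum albumin, was at 78.5 to 255 TPM with PBS and 3.72 to 517 TPM with leptin. In leptin replicates 3 to 5 *Alb* was at 3.72 to 7.25 TPM while *Mup19* was at 8331 to 14849 TPM. Leptin replicate 2, with 517 TPM of *Alb*, had the lowest *Mup19* of its group. Over the 16 hepatocyte markers the median log2 fold change with leptin was 0.58, beside 0.07 over all genes tested. The part of these markers in the *Mup* differences was not tested. Mammary and other epithelial markers, with 14 genes, summed to 1102 to 2475 TPM with leptin and 1537 to 2299 TPM with PBS, and adipocyte markers to 55378 to 94936 and 67377 to 86213 TPM.

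**Figure D3:**
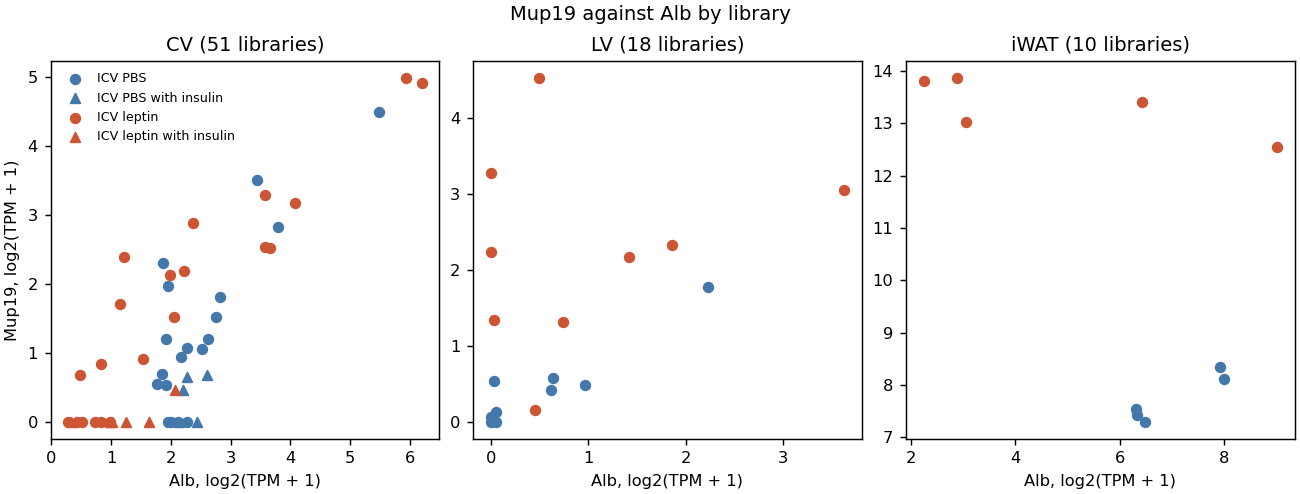
*Mup19* against *Alb*, both as log2(TPM + 1), with a point per library and a panel per tissue (axis ranges differ), ICV PBS in blue, ICV leptin in orange and insulin-treated mice as triangles. In iWAT the leptin-treated libraries hold 5962 to 14849 TPM of *Mup19* at 3.72 to 517 TPM of *Alb*, whereas in CV the 3 libraries with the most *Mup19* are the 3 with the most *Alb*.

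Genes of hormone signalling and other lipocalins were called in both directions in iWAT. Of 19 genes of the hormone pathways that act on *Mup* transcription in liver, 17 were tested. With leptin 3 were called higher and 2 lower, where 15.1% of all genes tested were called. The median log2 fold change of the 17 was 0.07, beside 0.07 over all genes tested. The change was largest for *Socs2*, a STAT5 target that restrains growth hormone signalling (2.13), followed by *Ghr*, the growth hormone receptor (-1.74), and *Cebpa*, an adipocyte and liver transcription factor (-0.88). Among 22 other lipocalins 10 were tested, and *Orm3*, an acute-phase orosomucoid, was called higher (0.88), while *Rbp4*, the carrier of retinol (-2.91), and *Orm1* (-2.37) were called lower.

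The genes whose iWAT levels followed the summed TPM of the 7 genes most closely over the 10 libraries, other than *Mup* rows, were *Rgs2* (Pearson r = 0.989 on log2(TPM + 1)), *Pim1* (0.988), *Pecr* (0.986), *Acot3* (0.985) and *Tmpo* (0.979), among 13387 genes. The points fall into the treatment groups, so these values describe the contrast between groups and carry no test.

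In LV the question was whether the same genes rose in a tissue with few adipocytes. The WT iWAT and WT LV libraries came from the same mice, and the cKO females are other mice that the choice of genes did not use. *Mup11* was higher in every leptin-treated mouse of both genotypes than in any PBS mouse, at levels of a few TPM, and *Mup19* was higher on average. The other 5 genes were close to the limit of detection.

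With PBS, *Mup11* in LV was at 0, 0.22, 0, 0 and 0.22 TPM in WT females, from 0 or 5 counts a library. With leptin it was at 6.40, 1.00, 1.77, 6.31 and 7.57 TPM, from at least 21 counts a library. The groups did not overlap, which held for 1.99% of genes tested in this comparison (1.02% in the higher direction) and for 1 of the 7. Since the groups were apart as a whole, they were so within each series of mouse numbers too, which is no further check.

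In cKO females, *Mup11* was at 0, 0, 0.21 and 0.32 TPM with PBS and at 1.10, 4.32, 2.39 and 26.03 TPM with leptin, from 27 to 556 counts. The leptin replicate 4 library stood above the others. Groups without overlap were seen for 2 of the 7 genes, *Mup11* and *Mup19*, and for 4.20% of genes tested (4.02% in the higher direction).

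*Mup19* in LV was at 0.09, 0.40, 2.42, 0.04 and 0 TPM in WT PBS mice and at 3.51, 0.11, 1.53, 3.70 and 8.64 TPM in WT leptin mice. The WT groups overlapped, through PBS replicate 3 and leptin replicates 2 and 3. In cKO females it was at 0.34, 0, 0.45 and 0.49 TPM with PBS and at 7.32, 4.01, 1.48 and 22.0 TPM with leptin. There the lowest leptin library was above the highest PBS library.

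Fitted within WT, *Mup11* had a log2 fold change of 5.49 (SE 0.80, adjusted p = 0.0559 by edgeR's quasi-likelihood test) and was not called. No gene of 14873 was (0%), although 2183 had an unadjusted p below 0.05, 3 of the 7 among them, and DESeq2 called 145 genes including *Mup11*. Within cKO, the log2 fold change of *Mup11* was 5.81 (SE 1.27, adjusted p = 0.385 by edgeR) and that of *Mup19* was 4.67 (adjusted p = 0.364 by edgeR), and neither was called. There too 0% of genes were called, with 1331 at an unadjusted p below 0.05 and 72 called by DESeq2, *Mup11* and *Mup19* among them. By a two-sided exact permutation test on log2(TPM + 1), *Mup11* gave p = 0.00794 in WT and p = 0.0286 in cKO, in each case the smallest p that the group sizes allow.

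A fit of both genotypes together, added after the values of *Mup11* were seen, tested the mean of the leptin effects over 9 mice with leptin and 9 with PBS. *Mup11* (log2 fold change 5.64, SE 0.80, adjusted p = 0.00239) and *Mup19* (3.62, SE 0.79, adjusted p = 0.0180) passed by edgeR's quasi-likelihood test. They were 2 of the 7 genes, beside 0.955% of all genes tested (0.477% in the higher direction). *Mup11* was also the only 1 of the 7 whose 9 leptin libraries all lay above the 9 PBS libraries, as 0.148% of genes did. Of the 10 other *Mup* rows, *Mup22* (1.88, adjusted p = 0.0232) and *Mup10* (2.72, adjusted p = 0.0445) passed in this edgeR fit. The sum of the 16 near-identical rows had a median of 20.7 CPM with leptin and 4.84 with PBS in WT, and of 23.3 and 4.47 in cKO. In WT this sum overlapped between groups, at 4.31 to 35.4 CPM with leptin and 0.830 to 6.98 CPM with PBS. In cKO it did not, at 7.98 to 77.8 CPM with leptin and 1.86 to 5.67 CPM with PBS.

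**Figure D4:**
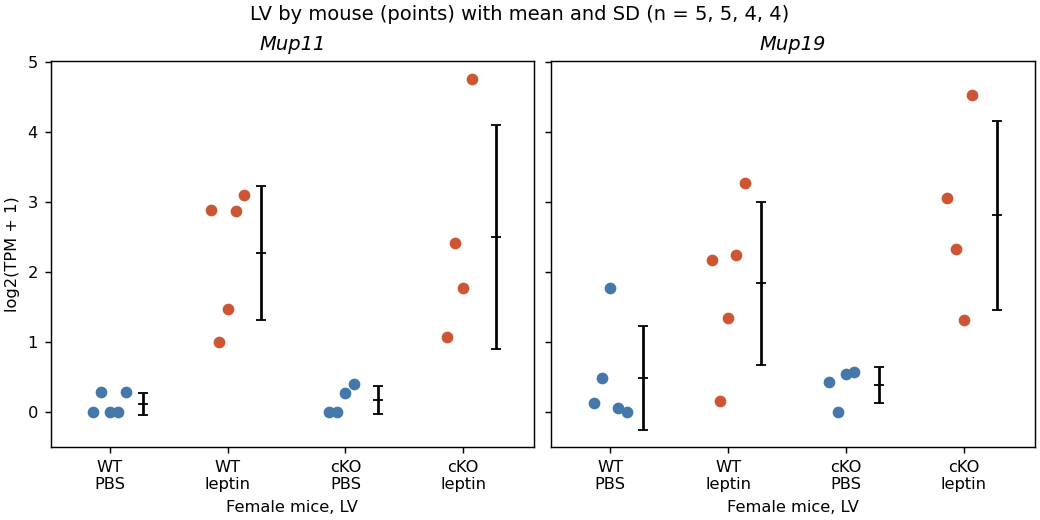
*Mup11* and *Mup19* as log2(TPM + 1) in each LV library of WT and cKO females, with a point per mouse and the mean with SD of each group beside it. *Mup11* with leptin (1.00 to 26.03 TPM) lies above PBS (0 to 0.32 TPM) in both genotypes, and *Mup19* overlaps in WT.

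The order of the leptin-treated mice differed between iWAT and LV. Leptin replicate 2 had the lowest *Mup11* of the group in both tissues, at 2085 TPM in iWAT and 1.00 TPM in LV. Leptin replicate 5, next lowest in iWAT at 2491 TPM, was the highest in LV at 7.57 TPM.

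The remaining genes were scarce in LV. *Mup1* was at 0 in 14 of 18 libraries, *Mup9* in 10 and *Mup20* in 11, and *Mup20* never exceeded 0.11 TPM. *Mup15* was at 0 in each of the 4 cKO PBS libraries and had 20, 0, 1 and 8 counts in the cKO leptin libraries. *Mup3*, which shares few reads, had 9 counts over the WT PBS group, 5 of them in replicate 3, and 1 over the WT leptin group. The rate was 9.09 times higher with PBS (95% interval 1.26 to 398, counting error only and not the spread between mice). Across mice *Mup3* was not called (log2 fold change -2.59, adjusted p = 0.302 by edgeR, two-sided exact permutation p = 0.0873). At these counts a difference in either direction would be detected only if it were large.

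Marker levels in LV were these. *Alb* was at 0 to 3.69 TPM in WT PBS, 0 to 1.68 TPM in WT leptin, 0.02 to 0.56 TPM in cKO PBS and 0.41 to 11.4 TPM in cKO leptin libraries. The WT leptin library with the most *Mup19* had 0 TPM of *Alb*, and the cKO leptin library with the most had 0.41 TPM. The cKO leptin library with the next most, 7.32 TPM of *Mup19*, had the highest *Alb* in LV, and the WT PBS library with 2.42 TPM of *Mup19* had 3.69 TPM of *Alb*. The 16 hepatocyte markers had a median log2 fold change with leptin of 2.80 in cKO and -0.91 in WT LV, with summed levels of 56.5 to 99.6 TPM with leptin and 48.9 to 78.7 TPM with PBS in cKO and 31.1 to 85.8 and 48.5 to 83.4 TPM in WT. Their part in the *Mup19* difference was not tested. The 10 adipocyte markers summed to 242 to 482 TPM with leptin and 293 to 567 TPM with PBS over both genotypes. In the fit of both genotypes 3 of 8 lymph node markers were called higher with leptin, *Ccr7* (0.68), *Cd3e* (0.67) and *Cd3g* (0.59). Of all genes tested 0.477% were called higher in it. The summed lymph node list was at 245 to 320 TPM with leptin and 202 to 297 TPM with PBS in WT and at 220 to 364 and 157 to 210 TPM in cKO, and its part in the *Mup11* difference was not tested. In the fit of both genotypes 1 of 17 hormone pathway genes was called, *Socs2* (0.59, adjusted p = 0.0470 by edgeR), beside 0.955% of all genes.

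In CV, the tissue the study was built around, none of the 7 genes passed the test for leptin in females or males of either genotype. Their levels were low and uneven, with a few libraries holding most of the counts. Over the 51 CV libraries *Mup19* reached 1 TPM in 23, *Mup11* in 13, *Mup15* in 11, *Mup3* and *Mup20* in 9 each, *Mup1* in 2 and *Mup9* in 1. *Mup1* was at 0 in 37 of them and *Mup9* in 41. Over the CV and LV libraries alone 5 of the 7 genes would have passed the low-value filter. *Mup1* (mean 0.116 TPM there) and *Mup9* (0.0972 TPM) entered the tests only through iWAT, yet count among the 7.

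In CV of WT females *Mup19* was at 1.86, 21.5, 6.12, 1.08 and 1.29 TPM with PBS and at 29.3, 8.81, 2.28, 4.73 and 4.80 TPM with leptin. A single high library in each group, PBS replicate 2 and leptin replicate 1, set most of the mean. The log2 fold change was 0.57 (adjusted p = 0.722 by edgeR). *Mup11* was at 0 to 2.69 TPM with PBS and 0 to 2.83 TPM with leptin (1.49, adjusted p = 0.370 by edgeR), and *Mup20* at 0 to 2.45 and 0.30 to 3.22 TPM (1.45, adjusted p = 0.257 by edgeR). Of the 7 genes 0 were called, by edgeR or DESeq2, and 0 had an unadjusted p below 0.05 in edgeR, beside 5.04% of genes called.

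In CV of WT males *Mup19* was at 0, 0, 0.92, 1.29 and 0.46 TPM with PBS. With leptin it ranged from 0 to 6.37 TPM with a median of 0.69 TPM over 8 mice. The log2 fold change was 1.75 (adjusted p = 0.418 by edgeR), that of *Mup11* was 2.83 (adjusted p = 0.284) and that of *Mup20* was 1.44 (adjusted p = 0.288). Again 0 of 7 were called by either tool and 0 had an unadjusted edgeR p below 0.05, beside 1.75% of genes called. The difference between the sexes in the leptin effect was tested as an interaction, and 0 of the 7 genes and 0% of all genes passed in edgeR (0 and 1130 at an unadjusted p below 0.05, 0 and 30 by DESeq2).

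In cKO mice the levels in CV were of the same order. *Mup19* was at 3.91, 2.90, 2.52 and 1.09 TPM in females with PBS and at 30.7, 3.37, 1.86 and 0.87 TPM with leptin. In males it was at 0, 0.45, 10.4, 0.62 and 0 TPM with PBS and at 0, 7.98, 0 and 0 TPM with leptin. In each group a lone library stood above the rest except among the PBS females. For leptin 0 of 7 genes were called in cKO females (0.0269% of all genes) and 0 in cKO males (0.188%), by edgeR and by DESeq2, and 0 had an unadjusted edgeR p below 0.05.

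Between genotypes with PBS 0 of 7 were called in either sex (0% of all genes in both, with an unadjusted p below 0.05 for 1476 genes in the female fit and 783 in the male fit, none of the 7 among them, and 46 and 40 calls by DESeq2). The interaction of genotype and leptin passed for 0 of 7 in females and in males (0% of genes in both edgeR fits). At an unadjusted p below 0.05 there were 0 of the 7 and 906 of all genes in females and 1 of the 7 and 393 of all genes in males, and DESeq2 called 2 and 0 genes, none of the 7.

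**Figure D5:**
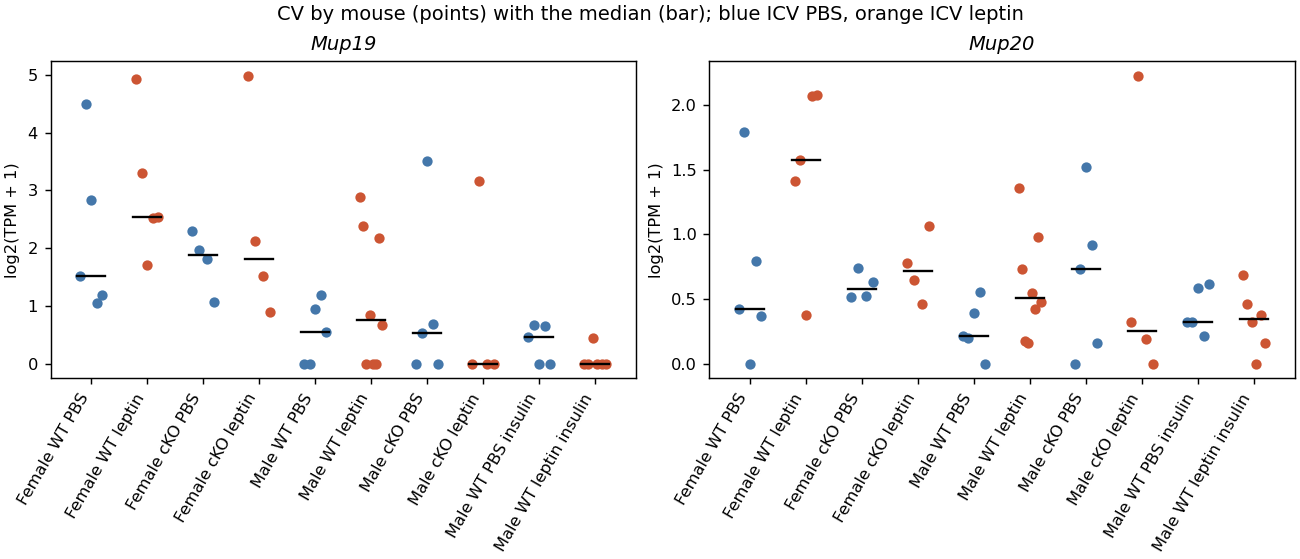
*Mup19* and *Mup20* as log2(TPM + 1) in each CV library by sex, genotype and treatment, with a point per mouse and a bar at the median of each group (axis ranges differ). *Mup19* reaches 21.5 to 30.7 TPM in 3 female libraries, and with leptin and insulin together it is at 0 in 5 of 6 male libraries.

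The high CV libraries for *Mup19* were also the high libraries for *Alb*. Those with 30.7, 29.3 and 21.5 TPM of *Mup19* had 60.3, 72.2 and 43.5 TPM of *Alb*, and no other CV library had more than 15.9 TPM of *Alb*. In these 3, a PBS library among them, the ratio of *Mup11* to *Mup19* was 0.0466 to 0.125. It was 0.299 to 0.551 in leptin-treated iWAT and 0.158 to 0.278 in iWAT with PBS. The CV ratios rest on 10 to 21 *Mup11* counts and depend on how reads were shared among copies. The genes that followed the summed TPM of the 7 genes most closely over the 51 CV libraries were *Alb* (Pearson r = 0.819 on log2(TPM + 1)), *Ttr* (0.817), *Ahsg* (0.790), *Apoa2* (0.708) and *Hpx* (0.695), among 13580 genes. All 5 encode plasma proteins made by liver. The correlation is a description over libraries that share group and depth.

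In leptin-treated WT males, insulin pellets went with fewer reads of *Mup11*, *Mup15* and *Mup19* in CV, within the limit given above that the insulin-treated mice are a series of their own. With leptin and insulin, *Mup19* had 3 counts over 6 libraries. With leptin alone it had 123 counts over 8 libraries, a rate 30.3 times higher (95% interval 10.1 to 149, counting error only). Leptin replicates 1, 2 and 7 held 52, 31 and 29 of these counts, and the other leptin libraries 0 to 7 each. The edgeR log2 fold change was -4.63 (SE 1.28, adjusted p = 0.0801), so *Mup19* was not called. *Mup11* and *Mup15* were at 0 in each of the 6 libraries and had 64 and 50 counts in the 8 without insulin. None of the 7 genes was called by edgeR or DESeq2, 3 had an unadjusted edgeR p below 0.05, and 0.363% of all genes were called. Of 16 hepatocyte markers 0 were called, with a median log2 fold change of -0.86 beside -0.004 over all genes. Their summed level was 133 to 351 TPM with leptin and insulin and 115 to 217 TPM with leptin alone. The part of these markers in the *Mup* differences was not tested. With PBS the insulin contrast called 0 of 7 genes and 0% of all genes in edgeR (0 and 976 at an unadjusted p below 0.05, 0 and 1 by DESeq2). The leptin contrast within insulin called 0 of 7 and 0.558% (0 of 7 at an unadjusted p below 0.05 and 0 by DESeq2).

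Tissues were compared in CV and LV of the same 5 WT females with PBS. *Mup20* had 26 counts in CV and 1 in LV, a rate 42.4 times higher (95% interval 6.97 to 1740, counting error only), and was called (log2 fold change 4.35, SE 1.27, adjusted p = 0.00675 by edgeR). *Mup15*, with 72 and 9 counts, was called as well (3.30, SE 1.23, adjusted p = 0.0252 by edgeR). *Mup19* was at 1.08 to 21.5 TPM in CV and 0 to 2.42 TPM in LV, and missed the threshold (2.35, adjusted p = 0.0541 by edgeR), but passed with the mouse as a block (2.48, adjusted p = 0.0112). The 2 called were set beside 66.6% of all genes called and 34.9% called higher in CV, so the share among the 7 was below the background. No gene of the 7 was without overlap between tissues, against 83.0% of all genes. The summed near-identical rows had medians of 4.93 CPM in CV and 4.84 in LV, a ratio of 1.02. Of 16 hepatocyte markers 5 were called higher in CV, *Alb* (2.90) and Apoh (3.81) among them, and 1 lower, with a median log2 fold change of 1.94 beside 0.02 over all genes, and their part in these differences was not tested. Female CV PBS replicate 2, the library with 43.5 TPM of *Alb*, held 7.01 TPM of *Mup15* and 18 of the 26 *Mup20* counts. Without it the *Mup20* rate was 16.3 times higher in CV (95% interval 2.19 to 725, a value added after the counts per mouse were seen), and 1 of the 7 genes was called, *Mup20* (3.03, adjusted p = 0.0199 by edgeR).

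The sexes were compared in CV of WT mice with PBS. *Mup19* was at 0 to 1.29 TPM in the 5 males and 1.08 to 21.5 TPM in the 5 females. It was lower in males (log2 fold change -3.31, SE 1.02, adjusted p = 0.0329 by edgeR; two-sided exact permutation p = 0.0238), and *Mup15* was not called (-3.22, adjusted p = 0.0854 by edgeR). The 1 called stood beside 7.96% of genes called and 4.46% called lower. Markers of hepatocytes moved with sex as well: 6 of 16 were called lower in males, *Alb* (-2.09) and *Ttr* (-4.95) among them, with a median of -2.04 over the list, and their part in the *Mup19* difference was not tested. Without female replicate 2 none of the 7 was called, and both sexes held mice of the same series of mouse numbers.

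A few hormone pathway genes were called with leptin in CV. In WT females 2 of 17 were called higher and 2 lower, beside 5.04% of all genes, and the median of the list was -0.12, with the largest changes in *Cish*, a STAT5 target (1.64), *Prlr*, the prolactin receptor (-1.40), and *Socs2* (0.96). In WT males *Cish* (1.53) and *Socs2* (0.98) were called higher, 2 of 17 beside 1.75% of all genes, and the median of the list was 0.03. Of 10 other lipocalins tested, *Rbp4* was the 1 called, lower in females (-0.78) and in males (-0.56).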

How the data were processed

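RNA was enriched with oligo dT, primed with random hexamers and sequenced as 100-base read pairs on DNBSEQ. The authors filtered reads with SOAPnuke and aligned them to GRCm38.p6 with HISAT and Bowtie2 (the submitters' processing notes also name GRCm39), and how they counted reads shared by copies is not given in the sources used here. The deposited tables hold estimated counts, which the authors did not normalize, and TPM calculated by the authors. Of the counts, 51 values in 6 genes were not whole and were rounded, none in the genes described.

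Genes were tested when their mean was at least 0.4 TPM over the 79 libraries, as in the study. The main test was the quasi-likelihood test of edgeR 4.0.16 on counts with TMM factors and Benjamini-Hochberg adjustment over 14873 genes, called at an adjusted p below 0.05 and a log2 fold change of at least 0.5 (no fold limit for interactions). Single genes were also tested with a two-sided exact permutation test, and DESeq2 1.42.0 and limma 3.58.1 were alternatives, as were other scalings, filters, blocks and left-out libraries. Scripts were tested on simulated data. Intervals and floors cover counting error only.

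The genes described and the lists were chosen with earlier results of these data known. Text named these genes, the other *Mup* rows, up to 3 called genes per list by size of change, and the 5 genes most correlated with the summed TPM in iWAT and in CV. Same-numbered CV and LV libraries came from the same mouse, and their deviations from the group means correlated with r of 0.044 to 0.194. Leptin and PBS mice of the same number are different animals. Transcripts were GENCODE vM21 and promoters RefSeq, both on GRCm38.p6.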

Additional observations from a re-analysis of the deposited data

Results flagged for a closer look

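Single libraries stood apart from their group in 6 of 24 sets examined, each a gene with a median of at least 1 TPM in a group of 4 to 10 mice. A library counted as apart when its gap to the next, divided by the range of the group, exceeded Dixon's critical value, which chance alone does in about 1 in 20 sets. *Mup11* was at 65.39 TPM in iWAT PBS replicate 3, with the next highest at 43.48 TPM. In LV of cKO females with leptin it was at 26.03 TPM in replicate 4, with the next at 4.32 TPM. In CV of WT females with PBS, replicate 2 held 7.01 TPM of *Mup15* (next 1.67 TPM) and 21.53 TPM of *Mup19* (next 6.12 TPM). *Mup19* was at 29.31 TPM in replicate 1 of the WT females with leptin (next 8.81 TPM) and at 30.68 TPM in replicate 1 of the cKO females with leptin (next 3.37 TPM). These 3 CV libraries were those with the most *Alb*. Since *Mup15* and *Mup19* share reads, their flags in CV PBS replicate 2 are not separate observations.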

How the results depend on the processing

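In iWAT 5 of the 7 genes were called under each of the 18 alternatives run. As the genes were picked on this contrast, nothing is read from that. In the LV fit of both genotypes *Mup11* and *Mup19* were called under each of 25. In LV of WT females *Mup11* alone was called with DESeq2, with no filter, with limma on log2(TPM + 0.1), with a covariate for the series of mouse numbers and by the exact permutation test without adjustment, 1 gene each against 0, and leaving out a library gave 0 to 1 (1 without leptin replicate 2). In LV of cKO females the count was 2 with DESeq2, 1 with the series covariate and 2 by the exact permutation test against 0, and 0 without any library. For CV against LV it was 1 with DESeq2 and 0 with filterByExpr against 2, and 1 to 4 with a library left out (1 without CV PBS replicate 2 or without LV PBS replicate 1, 4 or 5, and 4 without CV PBS replicate 5). For males against females it was 0 to 2 against 1 (0 without female replicate 2 or 3 or male replicate 1, 2 or 5, and 2 without female replicate 1). *Mup19* in CV of WT females changed sign without leptin replicate 1, from 0.57 to -0.31 on the log2 scale, and was at 1.90 without PBS replicate 2. The cause of these moves was not tested, beyond the fewer libraries.

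With the replicate number as a block, 5 genes were called in iWAT, 3 in CV against LV, where numbers mark the same mouse, and 1 in males against females, *Mup15* (adjusted p = 0.00854 by edgeR) in place of *Mup19* (adjusted p = 0.0539). In every comparison but CV against LV the numbers do not pair the mice. In the comparisons not named here the block changed no count of called genes among the 7.

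Calls over all genes in iWAT were 1077 higher and 1171 lower, but 465 and 1421 with limma on log2(TPM + 1) and 556 and 1587 on log2(TPM + 0.1). DESeq2 called over 1.5 times as many genes in several CV contrasts, with 460 against 260 in WT males, 219 against 4 in cKO females, 211 against 28 in cKO males and 229 against 83 within insulin, and 174 against 54 for insulin with leptin. With the series covariate 416 genes were called in WT males and 78 in LV of WT females against 0, and with the replicate block 65 in WT males. The LV fit of both genotypes called 142 genes, but 42 and 63 with limma on log2(TPM + 1) and log2(TPM + 0.1). On log2(TPM + 1) limma's median over all genes was 0.87 for CV against LV and -0.20 for males against females, and near 0 by edgeR. Of 364 alternatives for counts of the 7 genes, 342 stayed within 1.5 times the main count. In most comparisons the main count was 0, so this total says little about stability. The count stayed in 11 of 18 alternatives for CV against LV and in 11 of 17 for males against females. It stayed in 25 of 25 for the LV fit of both genotypes. Summed near-identical rows are values and give no count. Low counts in CV and LV and reads shared among copies both limit these values.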
